A study of Drosophila melanogaster with 6 samples.

Results

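The genes described here are 8 members of the signalling that links the fat body of the Drosophila larva with its brain. They are the secreted factors upd2, egr, daw and edin and the receptors dome, grnd, mthl10 and CCHa2-R, taken by FlyBase symbol from the 14869 genes of the deposited count table. All 8 were found in the table. Polyadenylated RNA was sequenced from male wandering L3 larvae raised at 25 °C, in 6 libraries of 3 groups with 2 biological replicates each. The groups were central brain without the ventral nerve cord, fat body of larvae fed 25 µM 4-hydroxytamoxifen (4-HT), and control fat body from food without it.

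Every library pooled equal numbers of larvae from 6 transgenic lines, 30 larvae for a brain library and 18 for a fat body library. Each line holds 1 transgene (M{FL}) at ZH51C in a y,w background, which places Dam under hsp70P with the 4-HT intein at L127C, either alone or joined to PC, H1, HP1, MRG15 or BRM. All groups, controls included, therefore carry a Dam methyltransferase gene that 4-HT can switch on by splicing of its intein, and the lines cannot be told apart within a library.

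The fat body is the insect organ of nutrient storage, and it reports the nutritional and immune state of the larva by secreted factors. Upd2, a cytokine of the Unpaired family, acts through Domeless (dome) and the JAK/STAT pathway, and from the fat body it is known to reach brain neurons that control insulin release. Eiger (egr) is the fly tumour necrosis factor, with Grindelwald (grnd) and Wengen (wgn) as its receptors upstream of JNK. Dawdle (daw) is an activin-like ligand of the receptor Baboon (babo). The short peptide encoded by edin is induced by infection. Mthl10 is a receptor of the growth-blocking peptides, and CCHa2-R a receptor of the peptide CCHamide-2, both of which the fat body makes in response to food.

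Brain libraries held 20687696 and 26530280 counts, 4-HT fat body libraries 47054569 and 65802288, and control fat body libraries 25860088 and 50905534. Of 10 fat body markers, 10 were lower in brain, and of 9 neuronal markers 8 were higher in brain and 1, Syt1, was lower (edgeR, adjusted p under 0.05, TMM scaling), the last not with library size only. The neuroblast list (8 of 8) and the list of insulin-producing cells (4 of 4) were higher in brain, as were 6 of 10 glial genes, with 1 lower. The sum of 12 salivary gland genes was 77.1 and 9.14 CPM (counts relative to the scaled library size) in brain. It was 75.6 and 60.1 CPM in 4-HT fat body, and 2055 and 98.5 CPM in control fat body. Control replicate 1 thus stood apart, and brain replicate 1 lay above brain replicate 2. In 4-HT fat body most of the sum was CrebA, with means of 64.3 CPM there, 74.5 CPM in control fat body and 6.61 CPM in brain. Every other gene of the list averaged at most 0.880 CPM (Sgs3) in 4-HT fat body. Hemocyte genes (11) summed to 52.5 to 57.6 CPM in brain, 569 to 635 CPM in 4-HT fat body and 655 to 677 CPM in control fat body, where srp, which fat body also expresses, made up most of the sum. Some other hemocyte genes set control replicate 1 apart as well. Pxn stood at 10.3 and 14.9 CPM in 4-HT fat body and at 55.9 and 10.05 CPM in control fat body, and Hml at 13.2 and 14.1 CPM in 4-HT fat body and at 48.6 and 16.15 CPM in control fat body. PPO2 (4.08 and 16.8 CPM with 4-HT, 32.0 and 4.81 CPM in control) and eater (2.54 and 4.45 CPM with 4-HT, 10.95 and 2.44 CPM in control) were also highest in that library among the fat body libraries. Not all of the hemocyte list followed this. The whole sum was 655 CPM in control replicate 1 and 677 CPM in control replicate 2. atilla, at 6.18 ± 0.776 CPM in control and 1.45 ± 0.644 CPM with 4-HT (SD, n = 2 each), was higher in both control libraries. crq averaged 92.0 ± 16.8 CPM in control and 104.6 ± 4.13 CPM with 4-HT (SD, n = 2 each). The part of salivary gland and hemocyte RNA in the results below was not tested. The sums of the gut, muscle, tracheal and testis lists were 0.173 to 21.15 CPM in brain, 3.09 to 35.2 CPM in 4-HT fat body and 3.035 to 56.75 CPM in control fat body. Of 5 ring gland genes tested, 4 (dib, sad, spok and Akh) were higher and 1 (Npc1a) lower in brain.

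The scaling between tissues bears on every level below. A few larval serum protein genes take much of a fat body library. TMM gives relative factors of 2.88 and 3.05 to the brain libraries and 0.578, 0.615, 0.586 and 0.547 to the fat body libraries. Over all tested genes the log2 fold change, brain over control fat body, had a median of 0.11 with TMM. The median was 2.49 with library size only and 1.46 with library size without the serum protein genes. Leaving those genes out thus removed only a part of the shift. Levels are CPM over TMM-scaled library sizes unless they are called unscaled. In bulk tissue, fewer cells of a type and less RNA per cell cannot be told apart.

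Among the secreted factors, daw and egr were abundant in fat body and lower in brain, while upd2 and edin were close to absent from every library. Among the receptors, dome and CCHa2-R were higher in brain, mthl10 stood at a similar level in both tissues on this scale, and grnd had only a few counts anywhere. Of the 8 genes, 6 had enough counts to be tested, and 4 of these passed between the tissues, 2 higher and 2 lower in brain (edgeR, adjusted p under 0.05). Of all 10029 genes tested, 70.0% passed, 35.5% higher and 34.5% lower, so that the count of members is near the background. The calls were the same with DESeq2 size factors (35.4% of all genes higher and 34.6% lower). With upper quartile scaling 3 receptors were higher and 2 ligands lower, while 71.3% of all genes passed, 41.7% higher and 29.6% lower. Library sizes without the serum protein genes gave the same member counts, with 78.3% of all genes passing, 60.9% higher and 17.4% lower. With library size only, 4 receptors were higher and 1 ligand lower, while 87.3% of all genes passed, 75.5% higher and 11.8% lower.

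**Figure D1:**
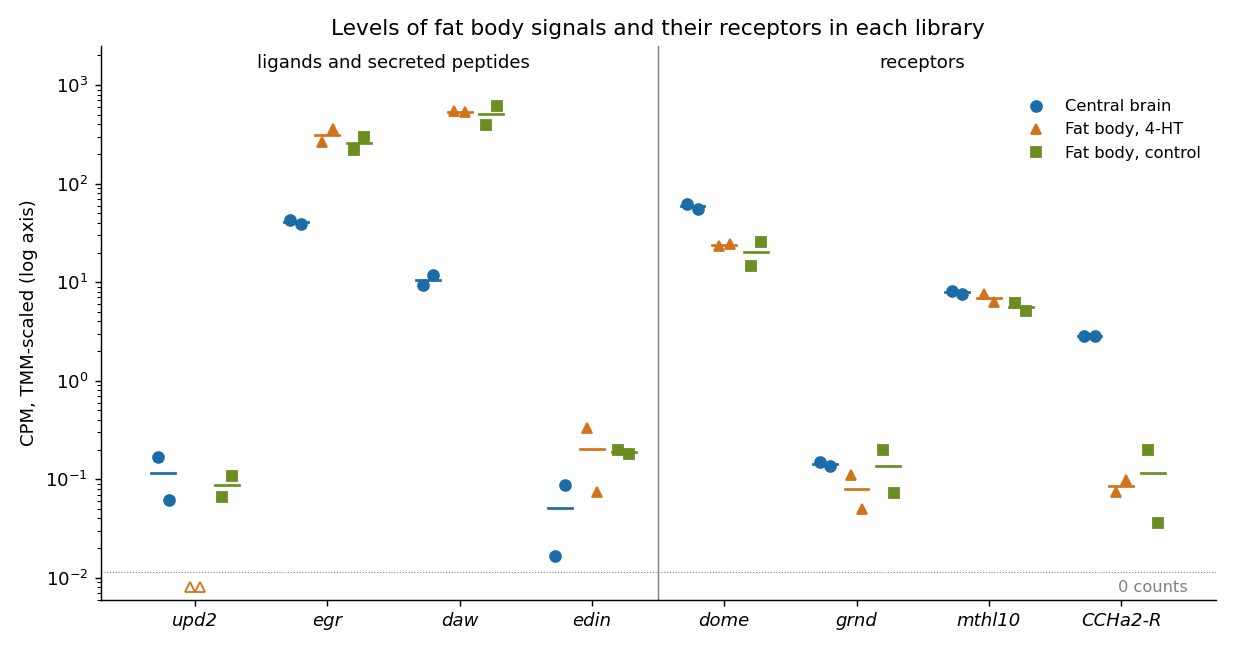
Levels of the 8 genes in each library, in CPM over TMM-scaled library sizes on a log axis. Each point is 1 library, horizontal bars are group means, and open symbols below the dotted line are libraries without a count. The brain points lie below all fat body points for egr and daw and above them for dome and CCHa2-R, and upd2, edin and grnd reach at most 0.331 CPM.

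daw was abundant in fat body and low in brain. It stood at 9.35 and 11.7 CPM in brain, at 540 and 538.5 CPM in 4-HT fat body, and at 399 and 619 CPM in control fat body. All 4 fat body libraries lay far above both brain libraries, and those of the 2 fat body groups overlapped. The means were 10.5 ± 1.66 CPM in brain and 509 ± 156 CPM in control fat body (SD, n = 2 each). daw was 48.3-fold lower in brain (log2 fold change -5.595 ± 0.318 SE, edgeR adjusted p = 1.51e-05). With library size only the difference was -3.19 on the log2 scale (edgeR adjusted p = 3.53e-05), so that the direction holds on either scale. By counts per kilobase of exon, daw ranked 5533 and 5102 among 13524 genes in brain, 373 and 396 in 4-HT fat body, and 496 and 334 in control fat body.

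egr was the other abundant ligand. It stood at 43.0 and 39.15 CPM in brain, at 265.5 and 358 CPM in 4-HT fat body, and at 219 and 299 CPM in control fat body. Every fat body library was above both brain libraries. The means were 41.1 ± 2.70 CPM in brain and 259 ± 56.7 CPM in control fat body (SD, n = 2 each), a 6.32-fold lower level in brain (log2 fold change -2.66 ± 0.259 SE, edgeR adjusted p = 1.45e-04). This call depends on the scaling. The unscaled levels of egr were 124 and 119 CPM in brain, 153 and 220 CPM in 4-HT fat body and 128.5 and 164 CPM in control fat body, and with library size only the log2 fold change was -0.27 (edgeR adjusted p = 0.310). Per kilobase, egr ranked 1114 and 1141 in brain, 475 and 394 in 4-HT fat body, and 583 and 422 in control fat body, so that it was among the more abundant genes of both tissues.

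upd2 was barely detected in the tissue it is known to signal from. It had 10 and 5 counts in brain, 0 and 0 in 4-HT fat body, and 1 and 3 in control fat body. The brain sum is 0.107 CPM (95% exact Poisson interval 0.0598 to 0.176) and the control sum 0.0930 CPM (0.0253 to 0.238). The 0 counts with 4-HT have an exact Poisson upper bound of 0.0546 CPM, and the limit of 3 counts is 0.0444 CPM over the group. The ratio of brain to control fat body was 1.15 with a 95% counting interval of 0.366 to 4.76. For 4-HT over control fat body the upper end of the counting interval was 0.964. The gene was too low to be tested. These intervals and limits cover counting error only.

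The other Unpaired genes were low in fat body as well. upd1, a further ligand of Domeless, had 115 and 196 counts in brain, 0 and 2 in 4-HT fat body and 0 and 0 in control fat body. Set against a floor of 3 counts for the control group, it was at least 31.8-fold higher in brain (edgeR adjusted p = 0.00151). upd3, the Unpaired cytokine of wounds and infection, had 0 and 1 counts in brain, 1 and 3 in 4-HT fat body and 3 and 7 in control fat body, and was not tested.

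edin was also near the detection limit. It had 1 and 7 counts in brain, 9 and 3 in 4-HT fat body, and 3 and 5 in control fat body. The brain sum is 0.0570 CPM (95% exact Poisson interval 0.0246 to 0.112), the 4-HT sum 0.177 CPM (0.0917 to 0.310) and the control sum 0.186 CPM (0.0803 to 0.366). Both brain libraries lay below both control libraries, but brain overlapped with 4-HT fat body. From the summed counts the ratio of brain to control fat body was 0.306, with a 95% counting interval of 0.100 to 0.937. That interval leaves out the spread between replicates. The gene failed the filter on low counts and was not tested.

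dome, the receptor gene shared by the Unpaired cytokines, had the highest level of the 4 receptor genes in brain. It stood at 62.6 and 55.9 CPM in brain, at 23.5 and 24.6 CPM in 4-HT fat body, and at 14.5 and 25.65 CPM in control fat body. The brain libraries were above all fat body libraries, and the spread between the control replicates was wider than that between the 4-HT replicates. With 59.25 ± 4.76 CPM in brain and 20.1 ± 7.875 CPM in control fat body (SD, n = 2 each), dome was 2.94-fold higher in brain (log2 fold change 1.55 ± 0.272 SE, edgeR adjusted p = 0.00220). The log2 difference was 3.95 with library size only. It was 1.24 without control replicate 1 and 2.04 without control replicate 2.

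CCHa2-R was the receptor with the widest tissue difference. It had 169 and 228 counts in brain (2.84 and 2.82 CPM), 2 and 4 counts in 4-HT fat body, and 3 and 1 counts in control fat body. The brain replicates nearly coincided and lay above every fat body library. The fitted log2 fold change was 4.78 ± 0.714 SE (edgeR adjusted p = 0.00106), a 27.5-fold higher level in brain. From the summed counts the ratio was 30.4 with a 95% counting interval of 11.8 to 112. Its size rests on 4 control counts: the log2 difference was 6.23 without control replicate 1 and 3.83 without control replicate 2, and it passed in both fits (edgeR adjusted p = 3.46e-04 and 0.00231).

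mthl10 stood at 8.21 and 7.52 CPM in brain, at 7.61 and 6.31 CPM in 4-HT fat body, and at 6.20 and 5.06 CPM in control fat body. The brain libraries lay above both control libraries and overlapped with the 4-HT libraries. The difference between brain and control fat body did not pass (log2 fold change 0.49 ± 0.207 SE, edgeR adjusted p = 0.0735). Over the alternatives the adjusted p ranged from 2.57e-05 to 0.453. The unscaled levels of mthl10 were 23.6 and 22.9 CPM in brain, 4.40 and 3.875 CPM in 4-HT fat body and 3.635 and 2.77 CPM in control fat body. It was therefore higher in brain by library size only, at a log2 fold change of 2.87 (edgeR adjusted p = 2.57e-05). It also passed with upper quartile scaling (0.82, edgeR adjusted p = 0.0130) and with library size without serum protein genes (1.85, edgeR adjusted p = 2.60e-04).

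grnd was the lowest receptor of the group in brain. It had 9 and 11 counts in brain, 3 and 2 in 4-HT fat body, and 3 and 2 in control fat body. At 0.151 and 0.136 CPM in brain and 0.198 and 0.0718 CPM in control fat body the tissues overlapped, with a log2 fold change of 0.205 ± 0.852 SE (edgeR adjusted p = 0.842). Its sign rests on single libraries, since it was 1.0 without control replicate 1 and -0.445 without control replicate 2. On library size alone the log2 fold change was 2.53 (edgeR adjusted p = 0.0275). In the current annotation 13.1% of the exon bases of grnd overlap kon on the opposite strand, and no other member overlaps an exon of another gene.

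The second Eiger receptor, wgn, was better covered than grnd. It stood at 5.12 and 4.58 CPM in brain, at 4.23 and 3.71 CPM in 4-HT fat body, and at 5.21 and 4.84 CPM in control fat body. Its log2 fold change of -0.051 ± 0.213 SE between brain and control fat body did not pass (edgeR adjusted p = 0.842), and with library size only it turned to 2.33.

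The order of the levels across the 3 groups was thus the same for daw and egr, with brain lowest and the fat body groups not apart beyond their spread. For dome and CCHa2-R brain was highest, and again the fat body groups overlapped. The mthl10 levels of 4-HT fat body lay between, overlapping with brain and above both control libraries. The groups of upd2, edin and grnd overlapped or differed by a few counts. In the authors' deposited table, daw, egr, dome and CCHa2-R had log2 fold changes of -5.56, -2.62, 1.60 and 4.69, brain over control fat body. Their adjusted p in the authors' deposited table were 4.88e-08, 2.45e-05, 9.94e-05 and 1.52e-05. The authors' deposited table gave mthl10 an adjusted p of 0.451. Of the genes named below, put, wit and Socs36E passed in edgeR but not there. Their adjusted p in the authors' deposited table were 0.0749, 0.122 and 0.0656.

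**Figure D2:**
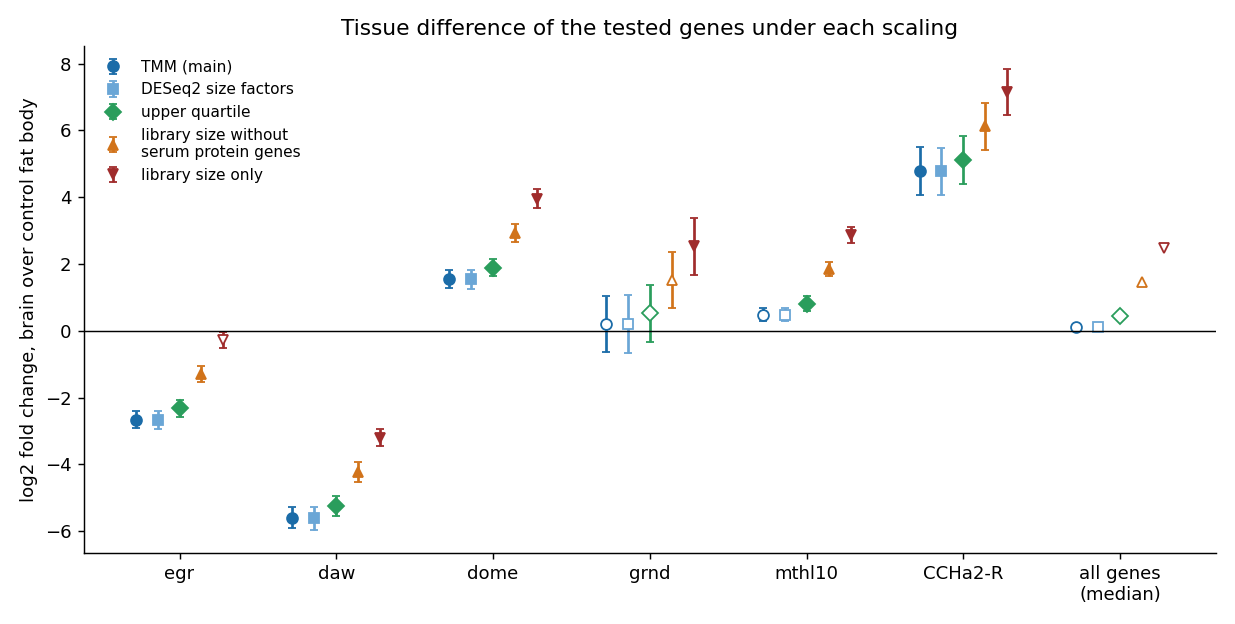
Log2 fold change of the 6 tested genes, brain over control fat body, under 5 scalings, with standard errors. Filled symbols pass an adjusted p of 0.05, open symbols do not, and the open symbols at the right are the medians of all tested genes. The signs of daw and egr stay below 0 and those of the 4 receptors above 0, while egr loses its call and grnd gains one with library size only. mthl10 gains a call with upper quartile scaling, with library size without serum protein genes and with library size only.

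Marker genes of each tissue were also measured in the other. The brain levels of the 10 fat body markers were 0.0198% (Lsp1beta) to 3.77% (Desat1) of their control fat body levels. daw, at 2.07%, lay within that range, between Col4a1 (1.46%) and Desat1, and egr, at 15.8%, lay above the range. In the other direction, the control fat body levels of the 9 neuronal markers ran from 0.107% (nSyb) to 610% (Syt1) of their brain levels, with Syx1A at 46.8%. Those of the 4 markers of insulin-producing cells ran from 0.154% (Ilp3) to 13.2% (dimm). The shares of CCHa2-R (4.13%) and dome (33.9%) lay within the neuronal range, whose top is set by Syt1, a gene lower in brain. Both shares lay above those of elav, nSyb, brp, Appl, fne and futsch, of which futsch was highest at 0.899%. CCHa2-R lay below CadN, Syx1A and Syt1, and dome lay between CadN and Syx1A. The part of RNA carried over in these levels was not tested.

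Feeding 4-HT was compared with control food within the fat body, where no member passed. The log2 fold changes, 4-HT over control, were 0.08 ± 0.261 SE for daw, 0.265 ± 0.243 SE for egr, 0.25 ± 0.268 SE for dome and 0.31 ± 0.209 SE for mthl10. For CCHa2-R and grnd, with at most 6 counts in a group, they were -0.18 ± 0.883 SE and -0.68 ± 0.967 SE. These values depend on single control libraries. Without control replicate 1 they were -0.199 for daw, 0.058 for egr, -0.095 for dome, 0.458 for mthl10, 1.23 for CCHa2-R and 0.091 for grnd. Without control replicate 2 they were 0.446 for daw, 0.517 for egr, 0.736 for dome, 0.174 for mthl10, -1.135 for CCHa2-R and -1.33 for grnd, and no member passed in either fit (smallest edgeR adjusted p = 0.305, dome without control replicate 2). The smallest adjusted p of the 6 tested genes was 0.910 and the smallest unadjusted p 0.186 (edgeR), both for mthl10. Of 10029 genes tested, 0 (0.0%) passed with edgeR, with 596 at an unadjusted p under 0.05. In simulated counts this comparison recovered 10.4% of 2-fold changes, so a lack of calls does not show a lack of change. DESeq2 called 23 higher and 22 lower (0.48%, 0.245% and 0.234% of 9384 genes), none of them a member. It gave upd2, edin and grnd no adjusted p, so these could not be called. In the authors' deposited table every member had an adjusted p of 1.0 in this comparison.

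A ratio of 2 genes within a library does not depend on the scaling between libraries. Ratios of ligand to receptor, in counts per kilobase, are given here as descriptions without a test. For daw over its receptor babo the ratio was 0.228 and 0.252 in brain, 6.685 and 9.28 in 4-HT fat body, and 7.78 and 7.94 in control fat body. The ligand was below its receptor in brain and above it in every fat body library, a difference between brain and control fat body of -5.03 on the log2 scale.

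For egr over wgn the ratio was 10.05 and 10.24 in brain, 75.2 and 115.5 in 4-HT fat body, and 50.4 and 74.0 in control fat body. egr exceeded wgn in all 6 libraries, and more so in fat body, with a log2 difference of -2.59 between brain and control fat body. For egr over grnd the log2 difference was -2.91, and it was -3.87 without control replicate 1 and -1.95 without control replicate 2, since grnd had 2 or 3 counts in each fat body library. dome, by contrast, exceeded upd2 by 151.5-fold and 367-fold in brain and by 89.35-fold and 96.8-fold in control fat body, and upd2 had no count in 4-HT fat body. The log2 difference of upd2 over dome, brain minus control fat body, was -1.34, and it was -1.98 without brain replicate 1 and -0.70 without brain replicate 2. It rests on 10 and 5 counts of upd2 in brain and 1 and 3 in control fat body. These values leave out counting error, so the sign is not settled.

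The peptides of the remaining receptors were fat body transcripts. Gbp2, a growth-blocking peptide, had 14 and 16 counts in brain against 28073 and 43293 in 4-HT fat body and 16017 and 27817 in control fat body. It was 4718-fold lower in brain (edgeR adjusted p = 3.87e-06). Gbp1 had 0 and 3 counts in brain, 1598 and 2553 in 4-HT fat body and 859 and 1141 in control fat body, a ratio of brain to control of 4.60e-04 with a 95% counting interval of 9.47e-05 to 0.00134. The ratio of Gbp2 to mthl10 was 0.0523 and 0.0481 in brain, 248 and 310 in 4-HT fat body, and 311.5 and 361 in control fat body.

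CCHa2, the gene of CCHamide-2, stood at 2.79 and 2.21 CPM in brain, at 271 and 259 CPM in 4-HT fat body, and at 318 and 285 CPM in control fat body. It was 120.6-fold lower in brain (edgeR adjusted p = 4.20e-06), the opposite direction to its receptor gene. CCHa2 exceeded CCHa2-R by 1.98-fold and 1.58-fold in brain, by 7414-fold and 5275-fold in 4-HT fat body, and by 3227-fold and 15990-fold in control fat body, where CCHa2-R had 3 and 1 counts.

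**Figure D3:**
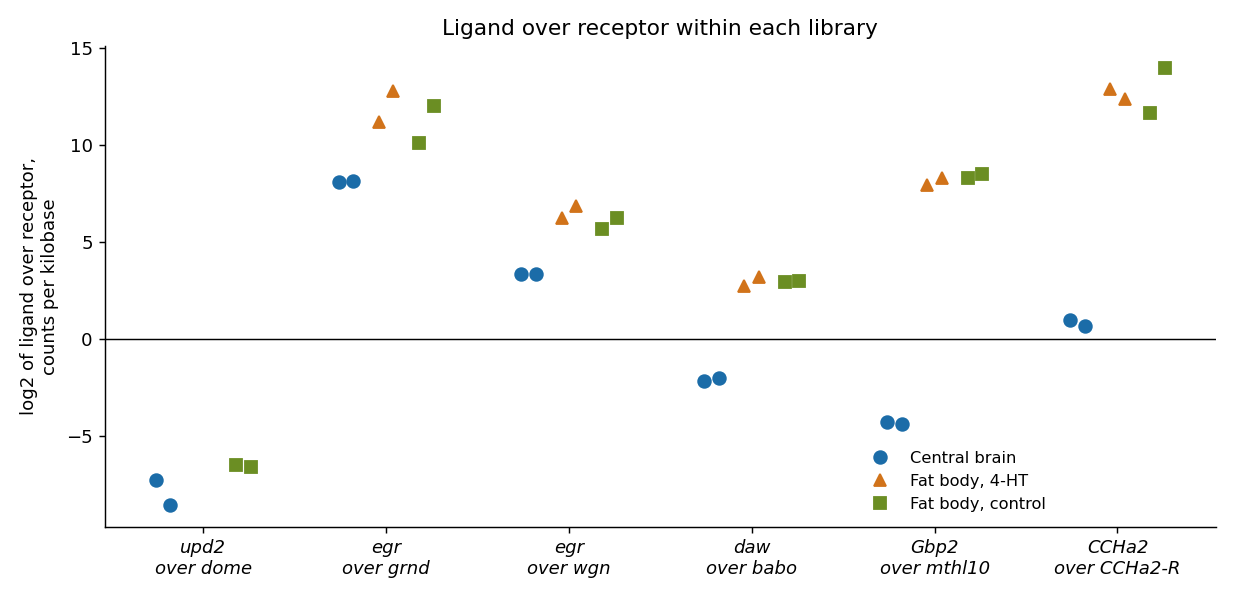
Log2 ratio of each ligand to a receptor within each library, in counts per kilobase of exon, with 1 point per library. The brain points lie below the fat body points that could be drawn in every pair shown. They lie below 0 in brain but above 0 in fat body for daw over babo and Gbp2 over mthl10. The 4-HT points of upd2 over dome are missing because upd2 had no count there. This gives only an upper bound, which does not set the order of that ratio against brain.

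The genes around the members were counted by list, against shares over all genes of 35.5% higher and 34.5% lower in brain with TMM, and of 75.5% and 11.8% with library size only. Of 10 tested JAK/STAT genes, the pathway of dome, 5 were higher in brain and 3 lower (edgeR, adjusted p under 0.05), or 8 and 2 with library size only. Their median log2 fold change was 0.78, against 0.11 for all genes. Stat92E, the transcription factor at the end of the pathway, stood at 51.6 and 58.9 CPM in brain, at 620 and 483 CPM in 4-HT fat body and at 464 and 495 CPM in control fat body. It was 8.68-fold lower in brain (edgeR adjusted p = 3.84e-05), and its log2 fold change was -0.73 with library size only. The Janus kinase gene hop did not pass (log2 fold change -0.085 ± 0.216 SE, edgeR adjusted p = 0.739), and turned to 2.31 with library size only.

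et, which encodes a relative of Domeless that dampens the pathway, ran opposite to dome. Its levels were 0.218 and 0.1855 CPM in brain, 51.5 and 66.1 CPM in 4-HT fat body and 52.4 and 57.4 CPM in control fat body, 270-fold lower in brain (edgeR adjusted p = 3.87e-06). Socs36E, a target and inhibitor of the pathway, stood at 28.4 and 29.6 CPM in brain, at 10.3 and 10.2 CPM in 4-HT fat body and at 7.06 and 17.8 CPM in control fat body. Its log2 fold change of 1.21 ± 0.384 SE passed (edgeR adjusted p = 0.0279), and was lost in a fit of the 4 compared libraries and without brain replicate 1, brain replicate 2, 4-HT replicate 1 or 4-HT replicate 2 (edgeR adjusted p = 0.0667 to 0.0925).

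Of 14 TNF and JNK genes, 4 were higher in brain and 4 lower, or 13 and 0 with library size only (all genes 35.5% and 34.5%, or 75.5% and 11.8%). Their median log2 fold change was -0.26 with TMM. The receptor adaptor gene Traf4 had the largest difference of those named, at 50.15 and 49.9 CPM in brain, 0.478 and 0.594 CPM in 4-HT fat body and 0.726 and 0.502 CPM in control fat body, 84.0-fold higher in brain (edgeR adjusted p = 4.36e-06). puc, a phosphatase gene induced by JNK, averaged 28.4 ± 2.62 CPM in brain and 12.6 ± 1.04 CPM in control fat body (SD, n = 2 each; log2 fold change 1.17 ± 0.168 SE, edgeR adjusted p = 8.79e-04). The kinase gene msn was 2.47-fold higher in brain (edgeR adjusted p = 0.00487). Tab2, a partner of the kinase Tak1, was 7.25-fold lower in brain (edgeR adjusted p = 3.81e-05), a call lost with library size only (log2 fold change -0.46, edgeR adjusted p = 0.0635).

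Of 13 activin and BMP genes, 2 were higher in brain and 6 lower, or 13 and 0 with library size only (all genes 35.5% and 34.5%, or 75.5% and 11.8%). Their median log2 fold change was -0.57 with TMM. Actbeta, another activin gene, with neurons as a known source, was opposite to daw. It stood at 23.8 and 28.4 CPM in brain, at 2.50 and 2.55 CPM in 4-HT fat body and at 2.18 and 2.01 CPM in control fat body, 12.5-fold higher in brain (edgeR adjusted p = 1.23e-05). The type I receptor gene babo stood at 64.1 and 72.6 CPM in brain, at 126.5 and 90.85 CPM in 4-HT fat body and at 80.2 and 122 CPM in control fat body. Its log2 fold change of -0.57 ± 0.271 SE did not pass (edgeR adjusted p = 0.103). It passed without control replicate 1, at -0.81 (edgeR adjusted p = 0.0329). The type II receptor gene put was 1.65-fold lower in brain (edgeR adjusted p = 0.00540; 0.0655 without brain replicate 2), but with library size only babo and put turned to 1.83 and 1.66.

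The Imd pathway senses bacterial peptidoglycan, and 1 of its 14 genes was higher in brain and 10 lower, or 7 and 3 with library size only (all genes 35.5% and 34.5%, or 75.5% and 11.8%). Their median log2 fold change was -1.81 with TMM. The NF-kappaB gene Rel averaged 10.4 ± 0.782 CPM in brain and 142 ± 19.3 CPM in control fat body (SD, n = 2 each), 13.65-fold lower in brain (edgeR adjusted p = 1.38e-05; log2 fold change -1.38 with library size only). The receptor gene PGRP-LC was 97.2-fold lower in brain (edgeR adjusted p = 3.87e-06). edin, by comparison, had at most 9 counts in a library.

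Among the 12 tested relatives of mthl10 in the Methuselah-like family, 2 were higher in brain and 5 lower, or 6 and 2 with library size only (all genes 35.5% and 34.5%, or 75.5% and 11.8%). Their median log2 fold change was -1.51 with TMM. mthl1 was 10.0-fold higher in brain, at 31.7 ± 0.810 CPM against 3.13 ± 0.501 CPM in control fat body (SD, n = 2 each; edgeR adjusted p = 3.04e-05). mthl4 and mthl3 were 5.14-fold and 3.59-fold lower in brain (edgeR adjusted p = 4.69e-05 and 9.32e-05), but with library size only their log2 fold changes were 0.03 and 0.55.

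Of 20 other secreted signals tested, 4 were higher in brain and 10 lower (all genes 35.5% and 34.5%), at a median of -0.89 on the log2 scale. Gbp3 and Lst, the gene of the peptide Limostatin, were 5149-fold and 3280-fold lower in brain (edgeR adjusted p = 3.94e-06 and 3.87e-06). Of 19 other receptors, 9 were higher in brain and 6 lower (all genes likewise 35.5% and 34.5%), at a median of 0.77. The adipokinetic hormone receptor gene AkhR and the receptor tyrosine kinase gene Pvr were 3536-fold and 149-fold lower in brain (edgeR adjusted p = 4.08e-06 and 8.58e-06). By library size only, 11 signals were higher in brain and 7 lower, and so were 16 and 3 receptors (all genes 75.5% and 11.8%). Some genes stand in more than 1 of these lists.

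**Figure D4:**
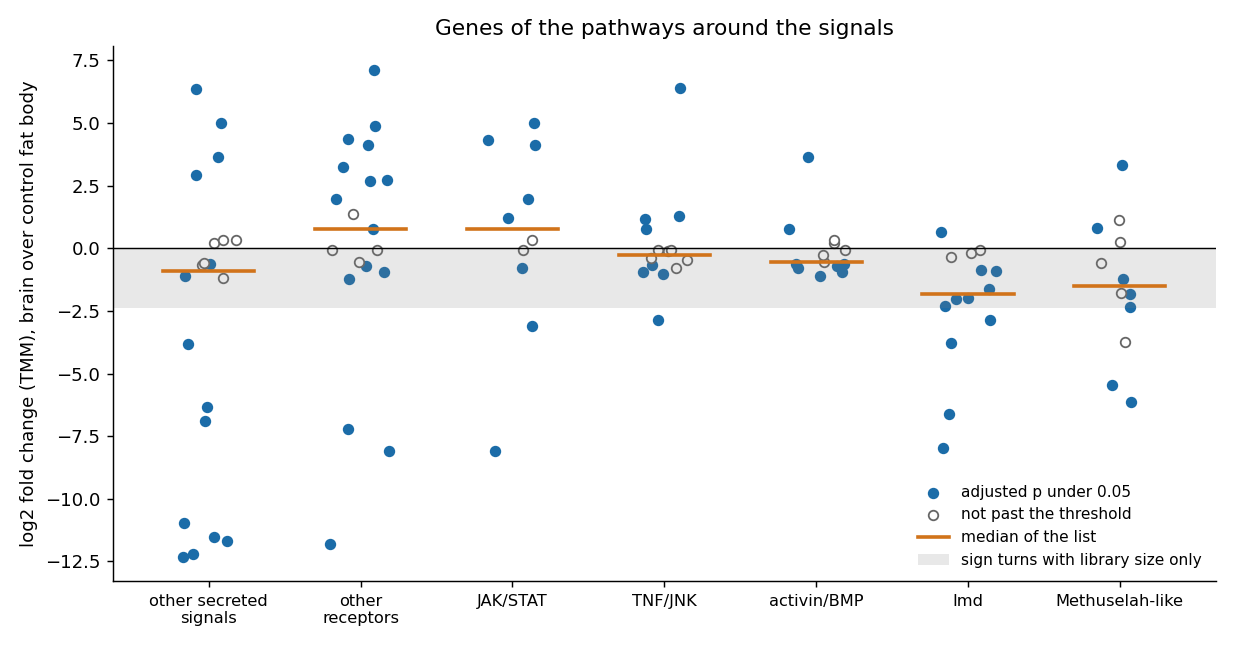
Log2 fold change with TMM, brain over control fat body, of each tested gene in 7 lists around the 8 genes, with list medians as bars. Genes without a count in control fat body are drawn at their lower bound, and the grey band, down to -2.38, holds genes whose sign turns with library size only. Most activin and BMP genes and many Imd genes lie in the band, while the growth-blocking peptides, CCHa2 and et lie far below it.

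By the distance of their log2 CPM profiles over the 6 libraries, each centred on its mean, the genes closest to the tested members were found among 9136 genes with a symbol. daw was closest to HDAC6 and Nep2 (distances 0.320 and 0.411), and egr to schlank and GNBP1 (0.306 and 0.317). dome was closest to CG1647 and CG10600 (0.268 and 0.309), and CCHa2-R to CG6293 and CG5888 (0.396 and 0.419). mthl10 was closest to IntS9 and MRG15 (0.173 and 0.204), the second of which is also carried by a transgene of 1 line. For grnd, at a few counts a library, RpS19b and spz5 were closest (0.354 and 0.362). These distances mostly describe the tissue difference, since only 2 tissues were sampled.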

How the data were processed

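The authors deposited whole-number counts per FlyBase gene and, per the file headers, 2 comparison tables. In these tables the authors give a signal per group (the mean of scaled counts) and its ratio or fold change over control fat body. The deposited log2 value is that of the fold change, and each deposited p-value is unadjusted or adjusted as its column states. Per the submitters' processing notes TopHat, HTSeq and DESeq were used with the build dm3. Counting mode, strand use and annotation release are not given here.

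Symbols and exon lengths came from BDGP6 (13524 of 14869 identifiers), another build, so no coordinates are given. Of 229 list entries 17 had no match, and 1 matched by synonym. After filterByExpr (10029 genes), counts were TMM-scaled and fitted in edgeR 4.0.16 (R 4.3.3; estimateDisp, robust glmQLFit, glmQLFTest). All 6 libraries entered with group as covariate, leaving 3 degrees of freedom. A gene was called where its Benjamini-Hochberg adjusted p, over all tested genes, was under 0.05. The SE is the size of the log2 fold change over the square root of F, and SD is between 2 replicates. DESeq2 1.42.0 was an alternative. For profile distances, 2 was the prior count of log2 CPM. Intervals and floors (3 counts) cover counting error only. The fit was tested on simulated counts with known changes. Between tissues it recovered 0.0% of 1.5-fold, 12.8% of 2-fold, 73.9% of 4-fold and 87.5% of 16-fold changes, with 6 false calls. For the 4-HT comparison these shares were 0.0%, 10.4%, 63.3% and 91.7%, with 11 false calls. In the simulated tissue comparison each fold was given to only 46 to 48 of 9563 genes, while 70.0% of genes passed in the real one. The simulated shares therefore do not describe the real tissue fit, where put passed at a 1.65-fold difference.

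The members and lists were chosen with earlier results of these data known. The rule for naming genes took 13 partners and, per list, up to 3 called genes of largest difference that reached 10 CPM in either tissue. Some of these are left out, and markers and list examples are named outside the rule. Ratios other than upd2 over dome and egr over grnd were added after seeing the data. Sequences of the members are not used here.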

Additional observations from a re-analysis of the deposited data

How the results depend on the processing

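The calls of daw, dome and CCHa2-R between tissues held in all 17 alternatives run, at log2 fold changes of -5.85 to -3.19, 1.24 to 3.95 and 3.83 to 7.15. egr kept its call in 16 of 17 (-2.92 to -0.27), mthl10 gained one in 5 and grnd in 1. With library size only, 7574 genes were higher and 1183 lower in brain, and 4 members were higher and 1 lower. With library sizes counted without the serum protein genes, 6108 genes were higher and 1746 lower. Library size only reversed wgn (2.33), babo (1.83), put (1.66), hop (2.31), gbb (1.28), wit (1.455), mthl4 (0.027) and mthl3 (0.55), and library sizes without serum protein genes reversed wgn (1.31), babo (0.80), put (0.64), hop (1.28), gbb (0.26) and wit (0.425). These shifts follow from the scaling, which moves all log2 fold changes by nearly the same amount.

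In the 4-HT comparison 0 genes were called with edgeR, 23 higher and 22 lower with DESeq2 and 2 lower without a filter. Leaving out 1 library each gave 0 to 30 higher and 0 to 8 lower genes. No member was called in any alternative of this comparison, but upd2 had an adjusted p in only 5 of them and edin in only 3. Same-numbered libraries deviated together between brain and control fat body (correlation 0.188) and not between the other pairs of groups (-0.137 and -0.09), so that the numbers were not taken to pair them. With the replicate number as a block, 3352 genes were higher and 3306 lower in brain, and 0 were called with 4-HT. Leaving out 1 library each moved the log2 difference of egr over grnd between -3.87 and -1.95, and of upd2 over dome between -1.98 and -0.70. Neither range includes counting error. Depth limits upd2, edin and grnd, which had at most 11 counts in a library.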

Other observations

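Within the JAK/STAT receptors and within the activin ligands, the tissues differed in which gene was the more abundant. These ratios were chosen after their values were seen. dome over et, in counts per kilobase, was 142 and 149 in brain, 0.225 and 0.184 in 4-HT fat body, and 0.137 and 0.221 in control fat body. The receptor gene was thus above its dampening relative in both brain libraries and below it in all 4 fat body libraries, a log2 difference of 9.71 between brain and control fat body. Actbeta over daw was 2.26 and 2.16 in brain, 0.00412 and 0.00421 in 4-HT fat body, and 0.00486 and 0.00289 in control fat body, a log2 difference of 9.21. Leaving out 1 library each moved these differences between 9.36 and 10.05 for dome over et and between 8.83 and 9.58 for Actbeta over daw.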
